A study of Mus musculus with 4 samples.

Results

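The Hoxa cluster was described by the Sub1 peaks that lay on 9 of its genes, Hoxa3, Hoxa4, Hoxa5, Hoxa6, Hoxa7, Hoxa9, Hoxa10, Hoxa11 and Hoxa13, out of 21887 protein-coding genes with a position in the annotation. The members were listed by name, and a peak was assigned to a gene when it overlapped the gene body or the 2 kb on either side, called the gene's window here. All peaks from 50 kb below Hoxa3 to 50 kb above Hoxa13 were taken as well, an interval of 191.8 kb at chr6:52119059-52310880 (mm10). Peaks came from CUT&Tag, which cuts and tags DNA next to an antibody bound in intact nuclei, with an antibody against Sub1, in 4 libraries from sorted mouse bone marrow cells. Hematopoietic stem cells (HSCs) of Nup214fl/+ mice were sorted as CD48- and CD150+ cells within the LSK gate (lineage-negative, Sca-1+, c-Kit+), in 2 libraries. Leukemia stem cells (LSCs) were sorted as Lin-, Sca-1-, c-Kit+, CD16/32+ and CD34+ cells of Nup214fl/+ mice with MLL-AF9-driven disease, also in 2 libraries. Both groups thus carried a floxed and a wild-type Nup214 allele, and the sorting gates differed along with the disease. Age, the way MLL-AF9 was introduced and any pooling of mice are not given in the sources used here, and no label ties the libraries to individual mice, so p-values measure the spread between these libraries, which may be technical.

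Hoxa genes encode homeodomain transcription factors that set position along the body axis in the embryo, and in blood the middle genes of the cluster, above all Hoxa9, are active in stem and progenitor cells and are switched off as cells mature. MLL-AF9 is a fusion of the histone methyltransferase Kmt2a (MLL) with the elongation cofactor Mllt3 (AF9), and it keeps Hoxa9 and its partner gene Meis1 switched on in leukemia. Sub1, also called PC4, is a single-stranded-DNA-binding cofactor of RNA polymerase II. No expression was measured in this series, so a peak here reports the position of tagged DNA and not the level of a transcript.

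The HSC lists held 115881 and 235680 peaks, and the LSC lists held 41097 and 34185. The background coverage that the caller's values imply, the only measure of depth in the lists, was 3.07 and 7.47 reads per position in HSC 1 and HSC 2, against 4.54 and 4.50 in LSC 1 and LSC 2. Lists of unequal length cannot be compared peak for peak, so counts were also made among the 34185 peaks with the highest -log10 p of each library, called equal-sized lists. Their lowest -log10 p was 27.5 in HSC 1, 76.1 in HSC 2, 13.8 in LSC 1 and 7.17 in LSC 2. The lists are thus equal in number but not in stringency, which was highest in HSC 2. Peak names carry the prefix H4-Cut in all 4 lists, which the labels do not explain, and the target is taken from the labels. As a check of the sort, windows of Ly6a (Sca-1) and Slamf1 (CD150) had peaks in both HSC libraries but in neither LSC library. Of all protein-coding genes, 7.85% had that pattern. At Slamf1, HSC 1 had 1 peak, over 0.597% of the window. Kit, Cd34, Fcgr3 and Fcgr2b had peaks in all 4, as did 56.1% of genes. So did Cd48, although the HSC gate selects against CD48. Fcgr3 (CD16), of the LSC gate, was covered to 74.9% and 72.0% in HSC 1 and HSC 2, against 48.8% and 65.2% in LSC 1 and LSC 2. Fcgr2b (CD32) was also covered more in both HSC libraries, so the markers did not all follow the gates. All 7 of these genes had a peak in each HSC library, and 5 had one in each LSC library. In equal-sized lists the count was 5 in every library, where 54.2%, 56.7%, 60.5% and 58% of all genes had a peak. Markers of other cell types had peaks too: of 10 neutrophil, B, T and erythroid genes, 7 and 9 had a peak in HSC 1 and HSC 2, against 7 and 5 in LSC 1 and LSC 2, where 69.7%, 83.8%, 62.4% and 58% of all protein-coding genes had one in that order. In equal-sized lists these counts were 4, 6, 5 and 5. S100a9, a calprotectin gene of neutrophils, had 100% of its window covered in both HSC libraries, but 37.2% and 57.8% in the LSC libraries. Cd3e (T cells) and Hba-a1 (erythroid cells) had peaks in HSC 2 alone. The part of such cells in the Hoxa peaks was not tested.

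Sub1 peaks were spread over the Hoxa region in HSCs and were few in LSCs, and the peak shared by all 4 libraries lay inside Hoxa9. HSC 1 and HSC 2 had 13 and 25 peaks in the region, and LSC 1 and LSC 2 had 3 and 2. HSCs had a mean of 19 ± 8.49 peaks (SD, n = 2) and LSCs one of 2.5 ± 0.707 (SD, n = 2), and the groups did not overlap (difference 16.5 peaks, p = 0.33, exact permutation test, two-sided, the smallest p that 2 libraries against 2 allow). Peaks covered 4.74 and 12.9 kb of the region in the HSC libraries, against 1.33 and 0.911 kb in the LSC libraries, a difference of 7.70 kb (p = 0.33, same exact test). This direction is the common one in these lists: of 13608 consecutive stretches of the same length across the genome, 61.1% had more peaks and 52.7% more covered length in both HSC libraries than in both LSC libraries. The region had more peaks than 78.3% (HSC 1), 75.0% (HSC 2), 70.0% (LSC 1) and 68.9% (LSC 2) of these stretches. The median stretch held 1 and 10 peaks in HSC 1 and HSC 2, and 0 in both LSC libraries. Among equal-sized lists the region held 4 and 2 peaks in the HSC libraries, against 3 and 2 in the LSC libraries, so the groups overlapped in peak number. Covered length there was 1.56 and 1.86 kb in HSCs, against 1.33 and 0.911 kb in LSCs, without overlap (difference 0.589 kb, p = 0.33, exact permutation test, two-sided). Of all stretches, 5.37% had more peaks and 7.34% more covered length in both HSC libraries when lists were equal in size. There the region had more peaks than 80.2% (HSC 1), 68.5% (HSC 2), 73.0% (LSC 1) and 68.9% (LSC 2) of stretches. In sorted bulk cells, a peak in fewer cells and a weaker peak in each cell cannot be told apart.

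**Figure D1:**
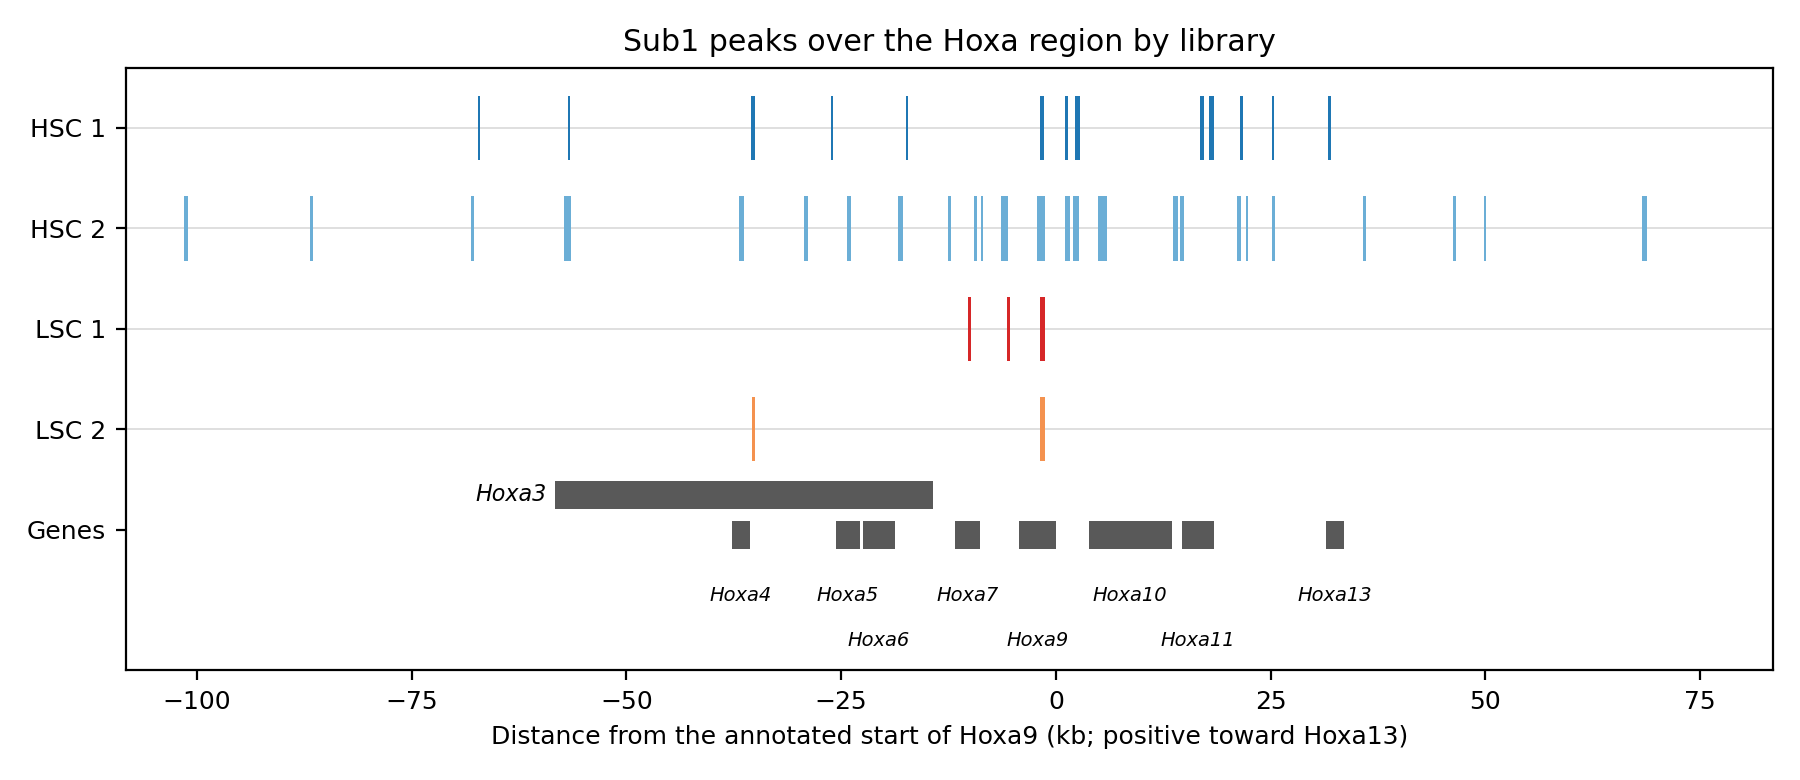
Sub1 peaks over the Hoxa region, drawn to scale in 1 row per library, with the 9 gene bodies below and distance from the annotated start of Hoxa9 in kb on the x axis. The HSC rows hold 13 and 25 peaks, the LSC rows 3 and 2, and the peak just left of 0 is present in all 4 rows.

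Merged across libraries, the 43 peaks formed 33 separate stretches. Of these, 18 were found in HSC 2 alone, 6 in HSC 1 alone and 1 in LSC 1 alone. Both HSC libraries shared 6 stretches, and both LSC libraries shared 1, the stretch inside Hoxa9, which is also the single stretch present in all 4. The 6 overlapping HSC pairs made up 46.2% of the HSC 1 peaks and 24.0% of the HSC 2 peaks, so most HSC peaks of the region were found in 1 HSC library. Their summits, the positions of highest coverage, lay 29 to 440 bp apart with a median of 106 bp. Peaks were narrow: widths ran from 222 to 579 bp in HSC 1, from 257 to 1076 bp in HSC 2, from 376 to 569 bp in LSC 1 and from 322 to 589 bp in LSC 2. The median widths of 305 and 454 bp in the HSC libraries lay below the medians of their whole lists, 372 and 462 bp. In LSC 1 and LSC 2 the median widths were 383 and 455.5 bp, against 591 and 841 bp in the whole lists.

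Hoxa9, the Hoxa gene most closely tied to MLL-rearranged leukemia, carried the strongest peak of the region in every library. The gene lies at chr6:52223097-52227370 and is read from high to low coordinates, and its peak covered chr6:52225541-52226006 in HSC 1, chr6:52225138-52226140 in HSC 2, chr6:52225547-52226115 in LSC 1 and chr6:52225521-52226109 in LSC 2. All 4 peaks shared 460 bp, and their summits fell within 82 bp of each other, 1427 to 1509 bp inside the gene from its annotated start. A peak's fold, deposited by the authors, is the ratio of coverage at the summit to background within a library and serves here to describe and order peaks of that library. At this peak the fold was 14.7 in HSC 1, 22.2 in HSC 2, 62.8 in LSC 1 and 35.4 in LSC 2, from summit pileups of 59, 187, 347 and 194 reads. By -log10 p it ranked 12515 of its list in HSC 1, 10046 in HSC 2, 8195 in LSC 1 and 8663 in LSC 2. As the lists differ in length, these ranks correspond to the top 10.8% and 4.26% in HSC 1 and HSC 2. In LSC 1 and LSC 2 they correspond to the top 19.9% and 25.3%. The peak belongs to the equal-sized list of every library. The annotation gives 1 start position for 2 Hoxa9 transcripts, so whether the peak lies at the start of the other transcript was not analysed here.

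**Figure D2:**
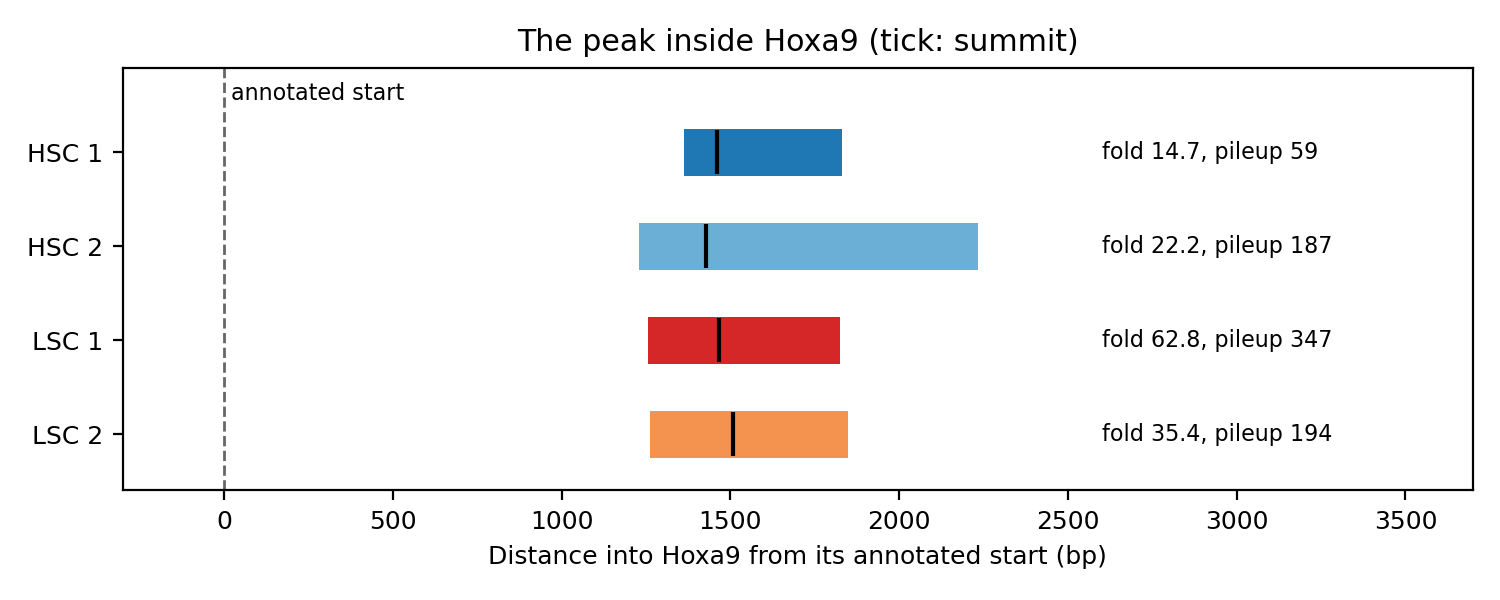
The peak inside Hoxa9 in each library, with distance into the gene from its annotated start in bp on the x axis, bars for the peaks and ticks for their summits. The 4 bars share 460 bp and the 4 ticks lie within 82 bp, with folds of 14.7 and 22.2 in HSCs and 62.8 and 35.4 in LSCs.

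Within each library, the Hoxa9 peak stood further above the rest of the region in LSCs than in HSCs. In HSC 1 the next strongest peak, inside Hoxa11os, had a fold of 14.5 and a pileup of 58, close to the 59 at Hoxa9. In HSC 2 the next was the peak at chr6:52221004-52221856, between Hoxa7 and Hoxa9, with a fold of 12.3. LSC 1 had its next peak in the same interval, at chr6:52221701-52222083, with a fold of 10.3. In LSC 2 the other peak of the region lay beside Hoxa4, with a fold of 6.36. The ratio of the strongest to the second fold was 1.02 and 1.81 in the HSC libraries, against 6.11 and 5.57 in the LSC libraries, so the groups did not overlap (means 1.41 ± 0.559 and 5.84 ± 0.377, SD, n = 2 each, p = 0.33, exact permutation test, two-sided). This measure was chosen after the values were seen, and 44.8% of the 4077 genome stretches with at least 2 peaks in each library showed the same order and 10.6% the opposite. The median ratio over those stretches was 1.55 and 1.53 in the HSC libraries, against 1.89 and 1.95 in the LSC libraries. The Hoxa9 peak made up 9.84% and 7.77% of the covered length of the region in HSC 1 and HSC 2, but 42.8% and 64.7% in LSC 1 and LSC 2. Without it, 0.759 and 0.322 kb of the region were covered in the LSC libraries and 4.27 and 11.9 kb in the HSC libraries.

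**Figure D3:**
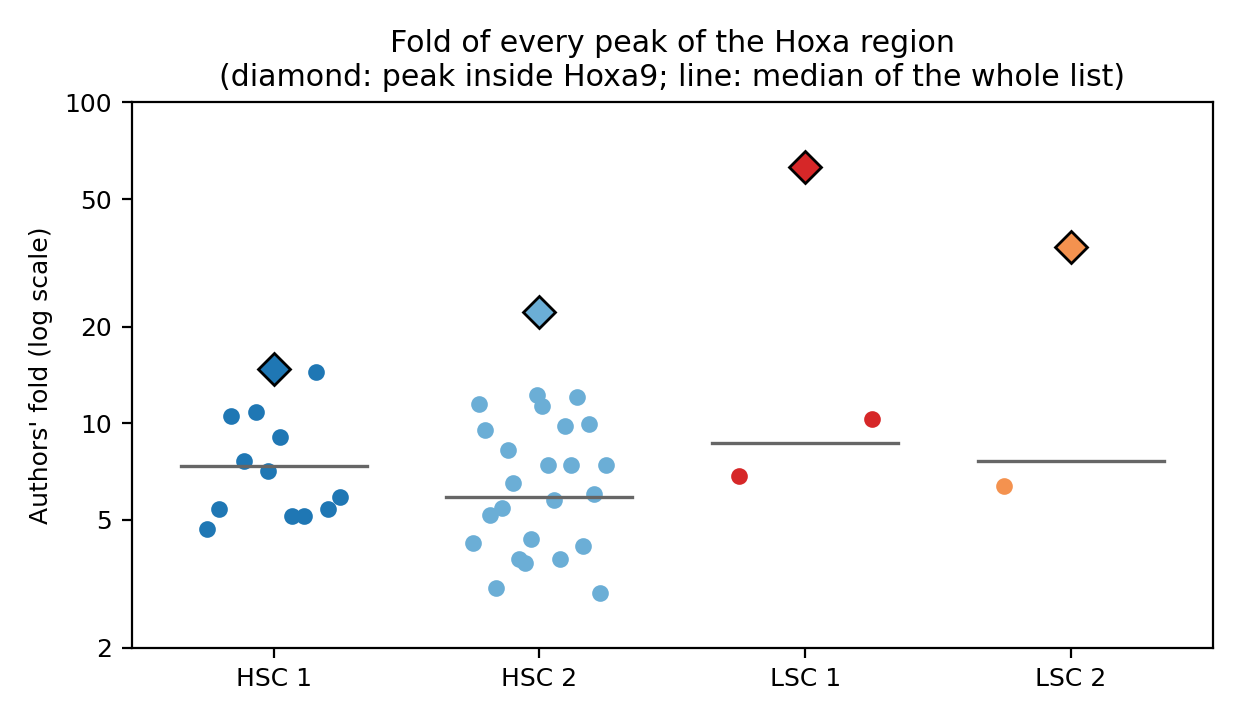
The authors' fold of every peak of the Hoxa region on a log axis, by library, with the peak inside Hoxa9 as a diamond and the median of the whole list as a line. The diamond is the highest point in each library, at 14.7, 22.2, 62.8 and 35.4 from left to right, and the second highest point lies at 14.5, 12.3, 10.3 and 6.36.

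Apart from the peak inside Hoxa9, the 12 peaks of the region in HSC 1 had a median fold of 6.51 and the 24 in HSC 2 one of 6.26, where the medians of the whole lists were 7.37 and 5.90.

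Counted by gene, 8 of 9 members had a peak in their window in HSC 1 and 8 of 9 in HSC 2, against 2 in LSC 1 and 3 in LSC 2 (difference 5.5 genes, p = 0.33, exact permutation test, two-sided). Over all protein-coding genes the shares with a peak were 69.7% and 83.8% in the HSC libraries, against 62.4% and 58% in the LSC libraries. Hoxa5, Hoxa6, Hoxa10 and Hoxa11 had a peak in both HSC libraries but in neither LSC library, a pattern found in 7.85% of all genes. No member had the reverse pattern, which 0.0777% of genes showed. Hoxa9 was the single member with a peak in all 4 libraries, where 56.1% of genes had that. Neighbouring windows overlap, and that of Hoxa3 contains or touches those of Hoxa4, Hoxa5, Hoxa6 and Hoxa7, so these counts are not independent. In equal-sized lists 4 members had a peak in HSC 1, 1 in HSC 2, 2 in LSC 1 and 3 in LSC 2, where 54.2%, 56.7%, 60.5% and 58% of all genes had a peak in the same order, and no member set the groups apart, where 0.471% of genes were in both HSC lists alone and 2.49% in both LSC lists alone. Hoxa9 kept its peak in all 4, as did 50.1% of genes.

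The share of a member's window under a peak had a median over the 9 members of 4.24% in HSC 1 and 12.9% in HSC 2 and 0% in both LSC libraries. Over all protein-coding genes the medians were 4.10% and 10.8% in HSCs and 3.35% and 2.81% in LSCs, so that in the deposited lists the members' median was near that of all genes in HSC 1 and HSC 2 but below it in the LSC libraries. In equal-sized lists the members' median was 0% in all 4 libraries, where that of all genes was 1.22% in HSC 1, 2.05% in HSC 2, 3.04% in LSC 1 and 2.81% in LSC 2. For 6 of 9 members, Hoxa3, Hoxa4, Hoxa5, Hoxa6, Hoxa10 and Hoxa11, both HSC values exceeded both LSC values, an order that 42.8% of all genes showed. None of 9 showed the opposite order, which 2.24% of genes did. In equal-sized lists the groups overlapped for all 9, where 10.5% of genes were higher in both HSC libraries and 18.9% in both LSC libraries.

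**Figure D4:**
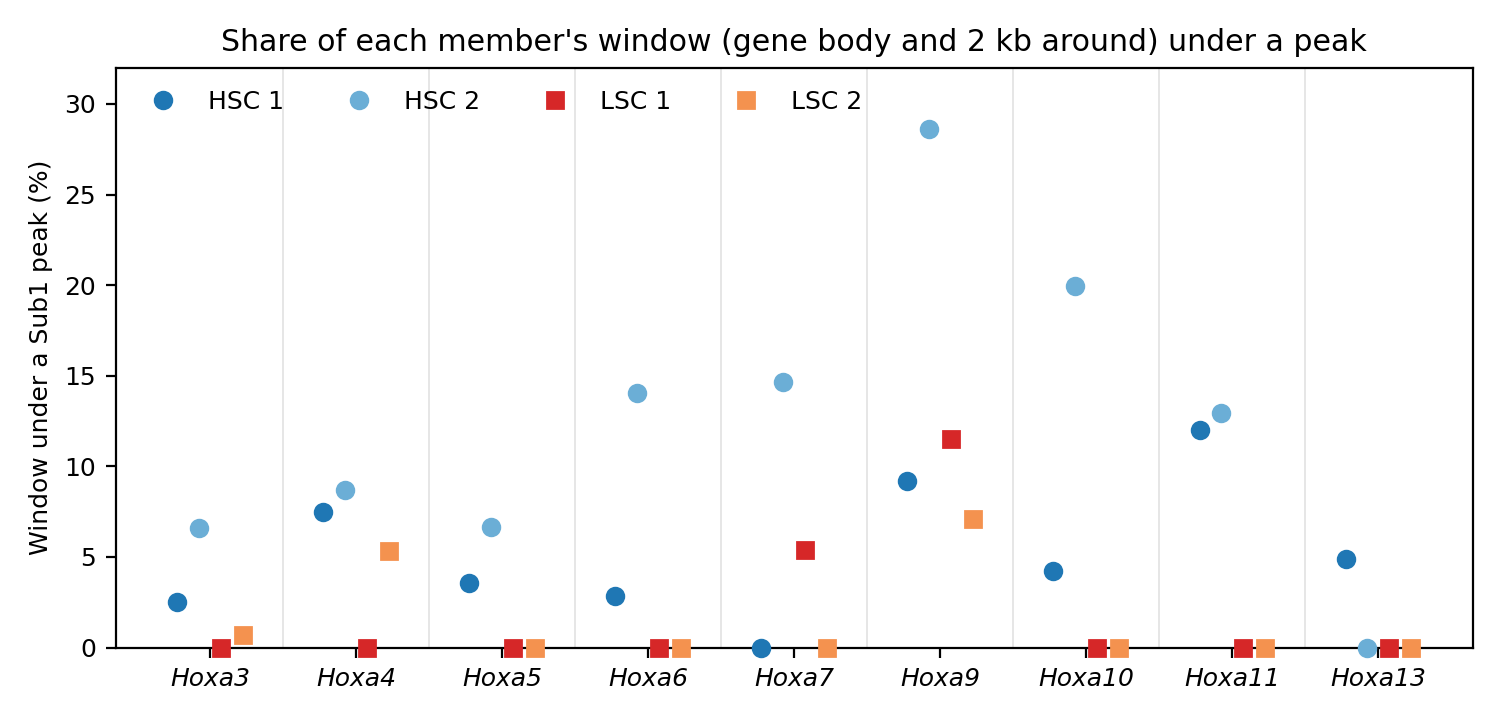
Share of each member's window (gene body and 2 kb around) under a Sub1 peak, in percent, with 1 point per library, circles for HSCs and squares for LSCs. Hoxa9 has all 4 points above 0, with HSC 2 highest at 28.6%, while Hoxa5, Hoxa6, Hoxa10 and Hoxa11 have both squares at 0.

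Hoxa3, Hoxa4, Hoxa5, Hoxa6 and Hoxa7 form the anterior side of the cluster, named for the body regions where they act in the embryo. Their merged windows of 53.5 kb had 1.21 and 3.96 kb under peaks in the HSC libraries, against 0.376 and 0.322 kb in the LSC libraries (difference 2.24 kb, p = 0.33, exact permutation test, two-sided). In equal-sized lists the lengths were 0.672 and 0 kb in HSCs, against 0.376 and 0.322 kb in LSCs, and the groups overlapped (difference -0.013 kb, p = 1, same exact test). Hoxa3, annotated as 44.0 kb long at chr6:52169059-52213067, had 4 and 6 peaks in HSC 1 and HSC 2, 0 in LSC 1 and 1 in LSC 2. Its low-coordinate part carried a peak in both HSC libraries, at chr6:52170517-52170814 in HSC 1 and chr6:52170126-52170965 in HSC 2, with folds of 5.40 and 5.19. No LSC library had a peak there.

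At Hoxa4, which in adult blood belongs to the genes shared by stem cells and MLL-rearranged leukemia, 2 libraries of different groups shared a peak just beyond the high-coordinate end of the gene. It ran over chr6:52191905-52192354 in HSC 1 and chr6:52192025-52192346 in LSC 2, with folds of 10.6 and 6.36 and summits 285 and 441 bp beyond that end. HSC 2 had none there and a peak of fold 3.07 inside the gene, and LSC 1 had none in the window. The window was covered to 7.47% in HSC 1, 8.70% in HSC 2, 0% in LSC 1 and 5.35% in LSC 2.

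For Hoxa5 the 2 HSC libraries had peaks at different places, at chr6:52201202-52201444 beyond the low-coordinate end in HSC 1 (fold 7.61) and at chr6:52203095-52203548 inside the gene in HSC 2 (fold 8.26). Around Hoxa6 they differed too, with summits 1365 bp upstream of the annotated start in HSC 1 (fold 10.8) and 401 bp upstream in HSC 2 (fold 6.49), whose Hoxa5 peak also reached the Hoxa6 window. Peaks of the LSC libraries were absent from both windows. With a 1 kb flank, the Hoxa6 window had no coverage in HSC 1 either. Hoxa7 separated the libraries in another way: HSC 1 and LSC 2 had no peak in its window, HSC 2 had 3 peaks with folds of 3.66 to 4.37, and LSC 1 had a peak of fold 6.85 at chr6:52217123-52217498, which overlapped none of the HSC 2 peaks. Its covered share was 0%, 14.7%, 5.41% and 0% in HSC 1, HSC 2, LSC 1 and LSC 2, so the groups overlapped.

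Among Hoxa9, Hoxa10, Hoxa11 and Hoxa13, the posterior side of the cluster, covered length in the merged windows of 32.7 kb was 2.56 and 5.09 kb in the HSC libraries, against 0.952 and 0.589 kb in the LSC libraries (difference 3.05 kb, p = 0.33, exact permutation test, two-sided). In equal-sized lists it was 0.466 and 1.76 kb in HSCs, against 0.952 and 0.589 kb in LSCs, and the groups overlapped (difference 0.344 kb, p = 1, same exact test). In every deposited list a larger share of the posterior than of the anterior windows was covered. The shares were 7.82% against 2.27% in HSC 1, 15.5% against 7.39% in HSC 2, 2.91% against 0.703% in LSC 1 and 1.80% against 0.602% in LSC 2. Most of the 53.5 kb of anterior windows is the Hoxa3 window of 48.0 kb, so this sets 1 long gene against compact ones. In equal-sized lists HSC 1 had 0.672 kb covered in the anterior and 0.466 kb in the posterior windows. HSC 2 had 0 and 1.76 kb there, and the LSC lengths were unchanged. In both LSC libraries all of the posterior coverage lay in the Hoxa9 window. That window was covered to 9.17% in HSC 1, 28.6% in HSC 2, 11.5% in LSC 1 and 7.12% in LSC 2, so that LSC 1 lay above HSC 1 and the groups overlapped.

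Upstream of Hoxa9, both HSC libraries had a peak with its summit 1150 bp (HSC 1, fold 7.12) and 1121 bp (HSC 2, fold 11.3) before the annotated start. Both LSC libraries lacked it. A further HSC pair lay between Hoxa9 and Hoxa10, at chr6:52229642-52230220 in HSC 1 with a fold of 9.09 and at chr6:52229413-52230061 in HSC 2 with a fold of 7.44. The HSC 1 peak covered the hairpin of Mir196b at chr6:52230081-52230165, and the HSC 2 peak ended 19 bp short of it. Mir196b is a microRNA gene that is switched on with its Hoxa neighbours in MLL-rearranged leukemia and pairs with messages of several Hox genes. Over 1005 microRNA hairpins in the RefSeq table, 19.6% and 24.5% were overlapped by a peak in the HSC libraries, against 16.2% and 16.8% in the LSC libraries. Its mature strands, taken from RefSeq (GRCm38.p6, minus strand), are shown because they are the product encoded under the HSC 1 peak, with the seed (bases 2 to 8) in capitals.
mmu-miR-196b-5p: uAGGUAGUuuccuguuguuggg
mmu-miR-196b-3p: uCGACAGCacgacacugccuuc

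Hoxa10, which acts in blood progenitors and in the reproductive tract, had 1 peak in its window in HSC 1 and 4 in HSC 2. Of these, 1 lay on the gene body, at chr6:52232254-52233329 in HSC 2, and it was the widest of the region at 1076 bp, with a fold of 5.78. The HSC 1 peak was the one over the Mir196b hairpin, and with a 1 kb flank it covered 0.206% of the Hoxa10 window. Hoxa11, better known for limb and uterus development, had 2 peaks in each HSC library at different places, inside the gene at chr6:52244147-52244568 and chr6:52245226-52245729 in HSC 1 (fold 5.16 for both) and at or beyond its low-coordinate end in HSC 2, where the peak at chr6:52241863-52242257 had a fold of 9.80. Its covered share was 12.0% in HSC 1, 12.9% in HSC 2 and 0% in both LSC libraries, a difference of 12.5 percentage points. Among peaks with a -log10 q of at least 10, the share was 0% in HSC 1 and 5.13% in HSC 2. The difference was then 2.56 percentage points. Hoxa11 had no peak in either HSC library in equal-sized lists. Hoxa13, which acts in the hand, foot and hindgut, had a peak of fold 5.89 at chr6:52259111-52259406 in HSC 1 alone.

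Promoters at the annotated starts of the members were mostly free of peaks. The RefSeq table gives 9 promoter entries for 8 members, each of 300 bases from 250 before to 50 after an annotated start, with 2 for Hoxa10. Hoxa4 has no entry. Hoxa3 has 1 entry for 5 transcripts and Hoxa9 has 1 for 2, so any further starts of these genes were not examined. A peak overlapped 0 of 9 in HSC 1, 2 of 9 in HSC 2, 0 of 9 in LSC 1 and 0 of 9 in LSC 2. Over 21263 promoters of protein-coding genes the shares were 48.5%, 51.4%, 51.4% and 49% in the same order. At Hoxa7, the HSC 2 peak that reached the promoter had a fold of 4.37 and a summit 231 bp before the start, and at Hoxa10 a fold of 3.78 and a summit 618 bp before it. Neither belongs to the equal-sized list of HSC 2. The antisense RNA gene Hoxa11os, read in the direction opposite to Hoxa11, had its start under the HSC 1 peak inside Hoxa11 (fold 5.16). CUT&Tag signal has no strand, so this peak cannot be assigned to either gene.

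The 3 promoters that a peak reached are printed from RefSeq (GRCm38.p6), 5′ to 3′ of the gene, with the bases under the peak in capitals. They lie at chr6:52218524-52218823 (Hoxa7, minus strand), chr6:52240805-52241104 (Hoxa10, minus strand) and chr6:52244993-52245292 (Hoxa11os, plus strand).
Hoxa7: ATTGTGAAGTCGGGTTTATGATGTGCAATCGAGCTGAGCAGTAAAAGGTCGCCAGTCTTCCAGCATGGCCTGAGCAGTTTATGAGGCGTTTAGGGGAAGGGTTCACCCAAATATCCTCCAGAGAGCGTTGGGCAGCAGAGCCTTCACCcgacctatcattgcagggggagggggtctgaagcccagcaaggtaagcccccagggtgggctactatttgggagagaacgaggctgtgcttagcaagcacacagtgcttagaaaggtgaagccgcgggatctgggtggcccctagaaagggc
Hoxa10: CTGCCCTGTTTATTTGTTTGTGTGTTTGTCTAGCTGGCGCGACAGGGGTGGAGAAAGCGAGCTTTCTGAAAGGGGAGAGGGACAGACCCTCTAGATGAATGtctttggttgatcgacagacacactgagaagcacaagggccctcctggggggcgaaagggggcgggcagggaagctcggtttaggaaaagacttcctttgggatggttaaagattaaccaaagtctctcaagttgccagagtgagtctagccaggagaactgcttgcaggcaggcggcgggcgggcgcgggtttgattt
Hoxa11os: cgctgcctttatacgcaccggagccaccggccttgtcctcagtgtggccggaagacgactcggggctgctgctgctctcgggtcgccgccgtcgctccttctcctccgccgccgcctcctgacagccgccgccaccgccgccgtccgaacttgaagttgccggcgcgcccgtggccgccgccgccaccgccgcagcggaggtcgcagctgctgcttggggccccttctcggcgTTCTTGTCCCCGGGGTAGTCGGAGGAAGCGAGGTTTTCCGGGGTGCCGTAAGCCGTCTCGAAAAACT
In Hoxa7 and Hoxa10 the capitals, 148 and 101 bases, are the upstream end, so the peaks stopped before the start. In Hoxa11os they are the 67 bases at the downstream end, which contain the start.

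No library had a peak over the promoter entries of Hoxa9, with the strongest peak inside the gene, and of Hoxa13, with the most CG dinucleotides. For Hoxa9, which has 2 transcripts, this covers the 1 annotated start only. Both promoters are shown for contrast. They lie at chr6:52227321-52227620 and chr6:52260831-52261130, both on the minus strand, and capitals mark the G-quadruplex pattern (4 runs of at least 3 G, separated by 1 to 7 bases, on either strand), a fold of DNA that Sub1 has been described to bind.
Hoxa9: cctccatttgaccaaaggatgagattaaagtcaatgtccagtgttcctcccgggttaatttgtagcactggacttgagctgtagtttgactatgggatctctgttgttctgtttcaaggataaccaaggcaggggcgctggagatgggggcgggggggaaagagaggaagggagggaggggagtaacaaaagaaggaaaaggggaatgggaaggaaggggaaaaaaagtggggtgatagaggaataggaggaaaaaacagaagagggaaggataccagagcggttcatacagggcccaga
Hoxa13: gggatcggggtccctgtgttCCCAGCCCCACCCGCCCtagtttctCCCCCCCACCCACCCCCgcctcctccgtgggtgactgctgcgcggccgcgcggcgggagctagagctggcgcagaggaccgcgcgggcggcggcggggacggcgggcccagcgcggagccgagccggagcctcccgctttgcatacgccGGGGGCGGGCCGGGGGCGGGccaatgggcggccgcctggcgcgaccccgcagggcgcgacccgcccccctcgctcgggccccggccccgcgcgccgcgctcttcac
CG counts were 4 at Hoxa9, 9 at Hoxa7, 12 at the upstream and 21 at the internal start of Hoxa10, 15 at Hoxa11, 20 at Hoxa3, 26 at Hoxa6, 29 at Hoxa5 and 45 at Hoxa13, against a median of 13 over all promoters. Those of Hoxa5, Hoxa6 and Hoxa13, with the highest counts, had no peak in any library. The G-quadruplex pattern was found in the promoters of Hoxa6, Hoxa13 and the upstream Hoxa10 start, and in 22.0% of all promoters. CCAAT was present at Hoxa5, Hoxa6, Hoxa13 and the internal Hoxa10 start (38.2% of all), and TATAAA at the internal Hoxa10 start (12.6%). TGATTTA and TTTATGG, parts of sites described for HOX proteins with and without PBX partners, and CACGTG were in none of the 9, against 2.61%, 2.26% and 7.84% of all promoters. Both strands were searched, and TGATTTA and TTTATGG can overlap. A match describes the letters and is not a measured site.

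Beyond the members, Hotairm1, a non-coding RNA gene below Hoxa3 that is known from myeloid cells, had a peak in each HSC library and no LSC library, at different places in the gene. Hoxa11os had 2 peaks in each HSC library and none in either LSC library, among them the HSC 1 peak at chr6:52248759-52249181 with a fold of 14.5. Hottip, the non-coding RNA gene beyond Hoxa13 that has been linked to Hoxa gene activation in leukemia, had a peak of fold 9.92 in HSC 2 alone. Hoxa2 had a peak in no library. Below Hoxa3 and above Hoxa13 both LSC libraries had no peak at all, while HSC 1 had 1 and 0 and HSC 2 had 3 and 4.

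Hox proteins bind DNA with cofactors of the TALE class. Of 10 such genes, 9 and 10 had a peak in their window in HSC 1 and HSC 2, against 8 and 6 in LSC 1 and LSC 2, where 69.7%, 83.8%, 62.4% and 58% of all genes had one in that order. In equal-sized lists the counts were 6, 7, 7 and 6. Meis1, the partner that MLL fusions activate with Hoxa9, had 4 and 16 peaks in the HSC libraries, 1 in LSC 1 and 0 in LSC 2. Its window is long, and 0.743%, 5.32%, 0.512% and 0% of it was covered in HSC 1, HSC 2, LSC 1 and LSC 2. Pbx3, a cofactor of Hoxa9 in leukemia, had 9, 6, 4 and 3 peaks in that order. Of 16 regulators of Hoxa genes, 14 and 15 had a peak in the HSC libraries and 13 in each LSC library, with Kmt2a, Men1, Psip1 and Dot1l in all 4. In equal-sized lists the regulators with a peak numbered 12 in HSC 1 and 13 in each other library, where the shares of all genes were 54.2%, 56.7%, 60.5% and 58%. Cdx1, a homeobox gene that acts upstream of Hox genes in the embryo, had peaks in HSCs alone, and Cdx4 had none. All but Igf1 of 10 described targets of Hoxa9 and Meis1 had a peak in all 4 libraries, such as Myb, Myc, Flt3 and Bcl2, and Igf1 had 2 in HSC 2 alone. Over all genes 56.1% had a peak in all 4. In equal-sized lists 6 of the 10 targets were covered more in both LSC libraries than in both HSC libraries, an order that 18.9% of genes showed, and 0 were in the opposite order, which 10.5% showed. In the deposited lists 1 of the 10 targets had that order and 2 the opposite, where 2.24% and 42.8% of genes did. In equal-sized lists 3 TALE genes and 4 regulators were covered more in both LSC libraries, and 1 and 2 in both HSC libraries. In the deposited lists these counts were 0 and 0, against 6 and 10.

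The clusters most like Hoxa are its relatives Hoxb, Hoxc and Hoxd, of which Hoxb is active in stem cells and the others are best known from the trunk and limbs. With 50 kb on each side, 2.47% and 6.73% of the Hoxa region was covered in HSC 1 and HSC 2, against 0.692% and 0.475% in LSC 1 and LSC 2. The Hoxb region was covered to 4.75%, 10.6%, 1.25% and 0.697% in the same order, above Hoxa in 4 of 4 libraries. Hoxc reached 0.215%, 3.54%, 0.128% and 0.171%, and Hoxd 0.409%, 3.92%, 0.164% and 0%, both below Hoxa in 4 of 4 libraries. Mean differences of Hoxa from the others were -1.74 ± 1.70 percentage points for Hoxb, 1.58 ± 1.38 for Hoxc and 1.47 ± 1.16 for Hoxd (SD, n = 4 libraries). Each had p = 0.125 in an exact permutation test within libraries, two-sided, the smallest p that 4 libraries allow, and 0.125 after Benjamini-Hochberg adjustment over the 3 comparisons. These means, SDs and tests pool both groups, whose values differ. Hoxa minus Hoxb was -2.28 and -3.91 percentage points in HSC 1 and HSC 2, against -0.561 and -0.222 in LSC 1 and LSC 2. In the LSC libraries the highest fold was 62.8 and 35.4 in the Hoxa region, at Hoxa9, against 11.2 and 7.09 in Hoxb. Hoxc had 8.30 and 5.45, and Hoxd had 7.94 in LSC 1 and no peak in LSC 2. The HSC libraries had the opposite order of Hoxa and Hoxb, at 14.7 and 22.2 against 23.6 and 27.4, and whether the difference between clusters differs between the groups was not tested.

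**Figure D5:**
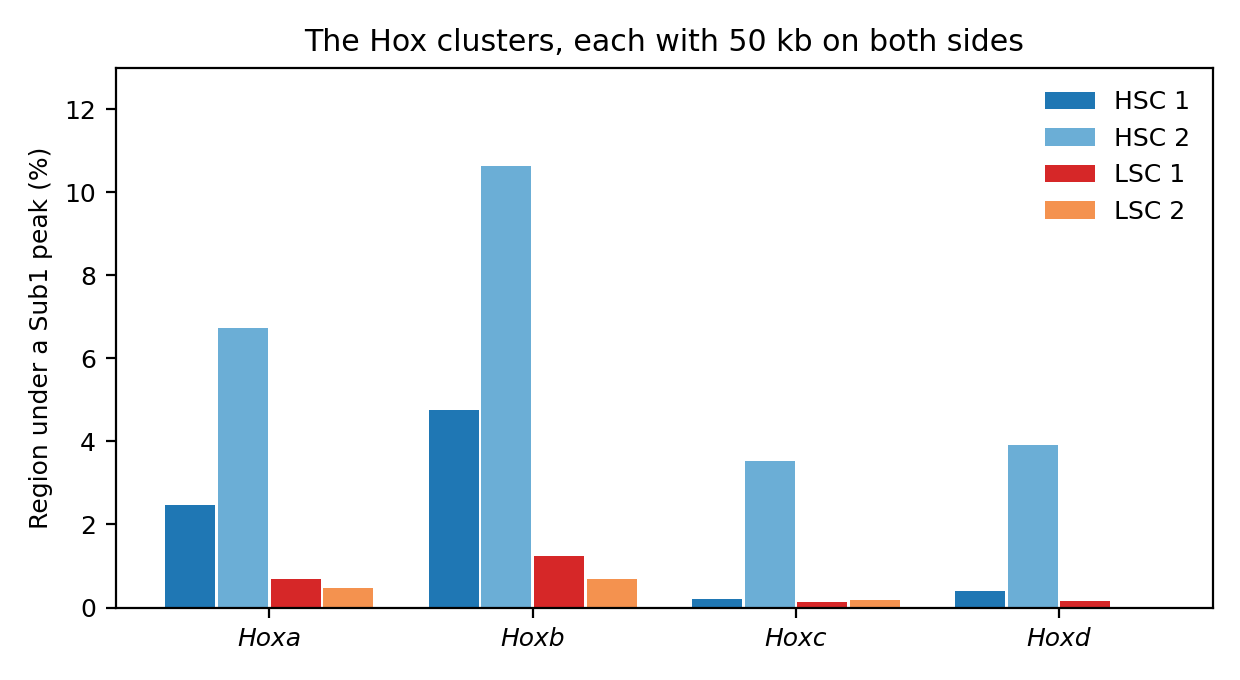
Share of each Hox cluster region (the genes and 50 kb on both sides) under a Sub1 peak, in percent, with 1 bar per library. In each library the Hoxb bar is above the Hoxa bar, up to 10.6% against 6.73% in HSC 2, and the Hoxc and Hoxd bars are below it.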

How the data were processed

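The tools used upstream were FastQC 0.11.5, Bowtie2 2.2.9 with mm10, MACS2 and ChIPseeker, per the submitters' processing notes. Handling of duplicates and any control are not given in the sources used here. The authors deposited 1 peak list per library, with a fold (ratio of pileup to background), -log10 p, -log10 q and a score of about 10 times -log10 q for each peak. From these, background and pileup were solved: nearly all folds gave whole pileups (within 0.05) with 1 background per library. Precision is limited by this depth, since read totals are not given in the sources used here.

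Genes, starts and sequences came from RefSeq (GRCm38.p6, the mm10 assembly), and all 9 members matched by symbol. Peaks counted from an overlap of 1 bp. Groups came from sample titles. Region values were compared with an exact permutation test, two-sided, over 6 assignments. The members, lists and tests were chosen with earlier results of these data known, and named genes are the members, annotated neighbours, list genes that differ between groups and up to 4 others a list, of which some are not reported here. Alternatives were equal-sized lists, a -log10 q of at least 10, flanks of 1 and 5 kb, no margin, summits in place of overlap, leaving out each library, and pairing by number. Interval functions were tested on simulated data. Computations ran in Python 3.11.15 with SciPy 1.17.1, NumPy 2.4.6, pandas 2.3.3 and, for figures, matplotlib 3.10.9.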

Additional observations from a re-analysis of the deposited data

How the results depend on the processing

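List length was the choice that changed most results. In equal-sized lists, HSC minus LSC came to 0.5 peaks and 0.589 kb in the region, 0 members with a peak, -0.013 kb in the anterior windows and 0.344 kb in the posterior windows, and 0 members had both HSC libraries above both LSC libraries. That member count was 4 with the stricter threshold, 5 with the 1 kb flank and 8 with the 5 kb flank, against 6 as reported. The stricter threshold left the Hoxa4 window without coverage in HSC 2 and brought the Hoxa11 difference from 12.5 to 2.56 percentage points. The covered share at Hoxa7 turned to -2.70 percentage points in equal-sized lists, -0.856 with the stricter threshold and ranged from -2.70 (without HSC 2) to 12.0 (without HSC 1) over the left-out libraries, and that at Hoxa9 ranged from -0.139 (without HSC 2) to 19.3 (without HSC 1). Leaving out each library gave differences of 10.5 to 22.5 peaks and 3.62 to 11.8 kb in the region, 5 to 6 members with a peak, 0.864 to 3.61 kb in the anterior and 1.79 to 4.32 kb in the posterior windows, and 6 to 8 members with HSC values above LSC values. The lowest peak and length differences came without HSC 2, and the highest without HSC 1. With the replicate block (4 assignments within shared numbers, which only name the libraries), differences were as before, 16.5 peaks and 7.70 kb for the region, and p was 0.5 throughout, the smallest it allows. The ratio of the strongest to the second peak differed by -4.82 to -4.03 (HSC minus LSC) without each library, and Hoxa kept its order with the other Hox clusters under every alternative run. The alternatives for this ratio and for the Hox clusters were added after the data were seen. No test of 2 libraries against 2 can pass 0.05.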
